A study of Homo sapiens with 6 samples.

Results

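The genes examined here encode the enzymes of cholesterol and fatty acid synthesis and the proteins that control them, and 28 of 31 listed symbols were measured, among 11963 genes in all. Each was found by its symbol where a probe set carried that symbol alone, and the brightest such probe set, by its mean level in all 6 arrays, stood for the gene. CYP51A1 and FADS1 shared their probe sets with another symbol, and they and FDFT1 were not analysed here. The 28 genes comprised 7 of the mevalonate and isoprenoid steps, 9 of the steps from squalene to cholesterol, 5 of sterol sensing and 7 of fatty acid synthesis, elongation and desaturation.

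RNA came from A549 cells, a human lung adenocarcinoma line, in 3 groups of 2 Affymetrix arrays. The PIAS3 group was transfected with a pCMV5 plasmid carrying human PIAS3, a SUMO ligase known to inhibit STAT3. The STAT3 siRNA group received an siRNA against that transcription factor, and the EGF control group was stimulated with EGF and not transfected. Cells of all groups were seeded for 12 h in medium with 10% serum, RNA was collected 48 h after transfection, and the design text adds a serum-free phase and EGF for all groups, although EGF appears in the titles of the control samples and in no other title. No array of cells given an empty vector or a non-targeting siRNA was analysed here, so transfection itself cannot be told apart from PIAS3 or the siRNA. Separate cultures are not stated for the arrays of a group: the p-values below reflect array-to-array spread, which may be technical, and the number of arrays limits the precision.

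Cells build cholesterol from acetyl-CoA through mevalonate, isoprenoids and squalene, and fatty acids from malonyl-CoA. Both pathways are controlled by the SREBP transcription factors, which are made as membrane proteins of the endoplasmic reticulum. When sterols are scarce, SCAP escorts them to the Golgi for cleavage, and when sterols are plentiful, INSIG proteins hold SCAP back. SREBF2 is known mainly for driving cholesterol genes and SREBF1 for driving fatty acid genes, and liver X receptors, which are activated by oxysterols, are known to raise SREBF1 and SCD.

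All values are log2 levels per probe set, and array medians lay between 6.63 and 6.72. No array value of the 28 genes fell below 6.20, while control probe sets for an absent transcript read 3.26 to 3.93. Of 6 epithelial markers, the keratins KRT8 and KRT18 read 12.39 to 12.62 and 13.60 to 13.79, and the other 4 differed more between groups. KRT19, another keratin, read 9.02 and 9.34 with PIAS3, 10.76 and 9.42 with the siRNA and 11.16 and 11.02 in controls, at -1.91 ± 0.38 with PIAS3 (limma adjusted p = 0.104). CDH1, which encodes E-cadherin, read 9.54 and 9.14 with PIAS3, 8.37 and 8.60 with the siRNA and 8.31 and 8.19 in controls, at 1.09 ± 0.16 with PIAS3 (limma adjusted p = 0.0761). EPCAM and CLDN4, epithelial surface and junction proteins, differed by -0.66 and -0.26 with PIAS3 and by -0.65 and -0.45 with the siRNA, and none of the 6 passed in any comparison. How these marker differences bear on the lipid genes was not tested. KRT5 and KRT14, keratins of basal epithelium, read 6.11 to 6.42 and 4.21 to 4.62. Of 4 adipocyte and 4 hepatocyte markers, ADIPOQ, an adipocyte hormone, and ALB, the hepatocyte product albumin, read within the absent-transcript range at 3.51 to 3.74 and 3.63 to 3.93, while the others read above it, from 4.04 for LEP to 7.18 for TTR. Of 6 leukocyte markers, PTPRC read 3.85 to 3.95, and CD14 read 6.84 and 6.54 with PIAS3, 5.90 and 5.99 with the siRNA and 5.87 and 5.83 in controls (limma adjusted p = 0.0792 with PIAS3). The other leukocyte markers also read above the absent-transcript range, from 5.26 for MS4A1 to 7.09 for CD3E. STAT3 itself read 10.18 and 9.70 with PIAS3, 10.23 and 9.94 with the siRNA and 10.50 and 10.43 in controls. PIAS3 read 7.78 and 7.72 with its plasmid, 7.50 and 7.64 with the siRNA and 7.70 and 7.71 in controls. STAT3 was lower in all 4 transfected arrays than in either control, and neither gene passed the threshold in any comparison. PIAS3 replicate 1 stood apart: its 26 interferon-stimulated genes had a median 3.81 above the control mean, against -0.00010 in PIAS3 replicate 2, and its poly-A spike-in probe sets had a median 1.41 above control, against -0.13. The 3' minus 5' gap of the actin probe sets, a sign of RNA quality, was 0.43 and 0.28 for PIAS3, 0.16 and 0.23 for the siRNA and 0.12 and 0.10 for the controls. In such bulk RNA, fewer expressing cells and less RNA per cell cannot be told apart.

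In cells given the PIAS3 plasmid, SREBF1 and SCD stood above the EGF control, and INSIG1, MSMO1, HMGCS1 and SQLE stood below it, but none of the 28 genes passed the threshold (limma, Benjamini-Hochberg adjusted p under 0.05 over all probe sets). The same fit called 22 of 22215 probe sets, or 0.0990%, with 0.0270% higher and 0.0720% lower. Before adjustment, 2 of the 28 genes were higher and 4 lower at a p under 0.05, against 7.13% and 7.44% of all genes, so the number of higher genes was near the share of all genes. Both PIAS3 arrays lay below both controls for 10 of the 28 genes (35.7%) and above them for 3 (10.7%), against 23.7% and 22.4% of all genes, or 46.1% in either direction. The median log2 difference of the 28 genes was -0.14, beside -0.0043 over all genes, and it rested on 1 array: the median against the control mean was -0.24 in PIAS3 replicate 1 and 0.0034 in PIAS3 replicate 2. That array also carried the raised interferon-stimulated genes and spike-ins given above, and their part in the result was not tested.

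**Figure D1:**
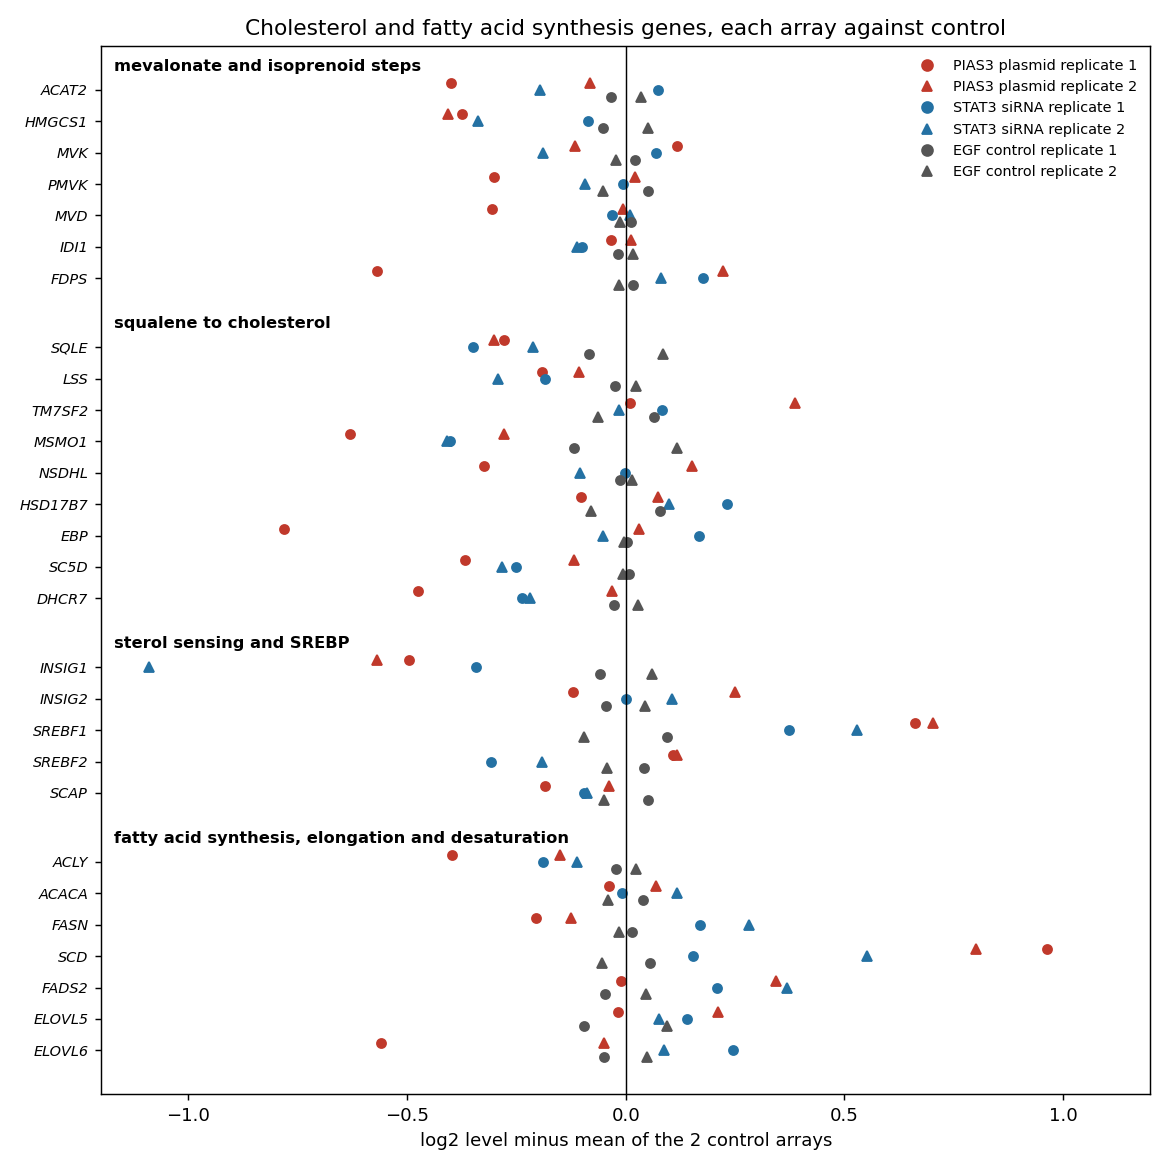
Log2 level of each of the 28 genes in each array minus the mean of the 2 control arrays (x axis), with genes down the page by role; circles are replicate 1 and triangles replicate 2 of the PIAS3 plasmid (red), STAT3 siRNA (blue) and EGF control (grey) groups. SREBF1 and SCD lie right of both controls in all 4 transfected arrays, INSIG1, MSMO1 and SQLE lie left of them, and PIAS3 replicate 1 lies left of both controls for 20 of the 28 genes.

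The mevalonate and isoprenoid enzymes had a median difference of -0.16 in the PIAS3 comparison, with 6 of 7 below control and 0 past the threshold. HMGCS1 makes HMG-CoA, the substrate from which mevalonate is formed. It read 6.35 and 6.31 in the PIAS3 arrays, 6.64 and 6.39 in the siRNA arrays, and 6.67 and 6.77 in the controls. Its PIAS3 arrays were close together and below both controls, at a log2 difference of -0.39 ± 0.12 (SE, n = 2 per group, limma adjusted p = 0.227). The other HMGCS1 probe set read 6.40 and 6.60 in the PIAS3 arrays, 5.88 and 6.25 in the siRNA arrays, and 6.52 and 6.73 in the controls. On that probe set the PIAS3 and control arrays overlapped and the siRNA arrays were lowest, so the HMGCS1 order depends on the probe set. ACAT2, the cytosolic thiolase at the start of the route, read 8.39 and 8.70 in the PIAS3 arrays, 8.86 and 8.59 in the siRNA arrays and 8.75 and 8.82 in the controls. Both PIAS3 arrays were below both controls, replicate 1 more so, while its siRNA and control arrays overlapped.

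FDPS, which joins isoprenoid units into farnesyl diphosphate, read 9.32 and 10.12 in the PIAS3 arrays, 10.07 and 9.97 in the siRNA arrays and 9.91 and 9.88 in the controls. The PIAS3 arrays thus lay on opposite sides of the other 4 arrays, 0.79 apart. MVD, which decarboxylates mevalonate diphosphate, read 6.20 and 6.50 in the PIAS3 arrays, 6.47 and 6.52 in the siRNA arrays and 6.52 and 6.49 in the controls. PMVK, the phosphomevalonate kinase, read 8.58 and 8.90 in the PIAS3 arrays, 8.87 and 8.78 in the siRNA arrays and 8.93 and 8.83 in the controls. For both genes PIAS3 replicate 1 alone was low, and the groups overlapped. MVK, the mevalonate kinase, and IDI1, which interconverts the isoprenoid building blocks, overlapped between PIAS3 and control, with values of 8.65 to 8.95 and 9.54 to 9.67 over the 6 arrays, and both siRNA arrays were below both controls for IDI1. On another MVK probe set all transfected arrays, at 7.34 to 7.44, lay below both controls, at 7.51 and 7.70. On the remaining one PIAS3 and control overlapped, and both siRNA arrays, at 6.39 and 6.37, lay below both controls, at 6.73 and 6.52.

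The steps from squalene to cholesterol had the lowest median of the 4 groups of enzymes and regulators, at -0.24 with 8 of 9 genes below control and 0 past the threshold. MSMO1, which oxidises the methyl groups of sterol intermediates, read 8.92 and 9.27 in the PIAS3 arrays, 9.14 and 9.14 in the siRNA arrays, and 9.43 and 9.66 in the controls. All 4 transfected arrays lay below both controls, by -0.45 ± 0.15 with PIAS3 (1.37-fold lower, limma adjusted p = 0.245), and by -0.28 without PIAS3 replicate 1. SQLE, the squalene epoxidase that is a rate-controlling step of the late pathway, read 9.48 and 9.46 in the PIAS3 arrays, 9.41 and 9.55 in the siRNA arrays, and 9.68 and 9.84 in the controls. The transfected arrays were again all below the controls, at -0.29 ± 0.11 with PIAS3 (limma adjusted p = 0.326). The other SQLE probe sets gave -0.34 ± 0.11 and -0.50 ± 0.15 for PIAS3, and neither passed.

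SC5D, a sterol desaturase, read 7.28 and 7.53 in the PIAS3 arrays, 7.40 and 7.37 in the siRNA arrays and 7.66 and 7.64 in the controls. DHCR7, the reductase that forms cholesterol itself, read 8.70 and 9.14 in the PIAS3 arrays, 8.93 and 8.95 in the siRNA arrays and 9.14 and 9.20 in the controls. LSS, the cyclase that makes lanosterol, read 8.71 and 8.80 in the PIAS3 arrays, 8.72 and 8.61 in the siRNA arrays and 8.88 and 8.93 in the controls. In these 3 genes each transfected array was below both controls, though PIAS3 replicate 2 was so by the thinnest margin in DHCR7, and none passed the threshold.

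EBP, the sterol isomerase, read 9.12 and 9.93 in the PIAS3 arrays, 10.07 and 9.85 in the siRNA arrays and 9.91 and 9.90 in the controls. Its PIAS3 arrays differed by 0.81, the widest gap among the 28 genes in any group, with replicate 1 the lowest of the 6 arrays. The other EBP probe sets gave -0.40 ± 0.22 and -0.45 ± 0.17 with PIAS3, and on the second of these both PIAS3 arrays, at 7.39 and 7.89, lay below both controls, at 8.05 and 8.13. NSDHL, a sterol dehydrogenase, also had its lowest value in PIAS3 replicate 1, at 8.17 and 8.64 in the PIAS3 arrays, 8.49 and 8.39 in the siRNA arrays and 8.48 and 8.51 in the controls. HSD17B7, a sterol ketoreductase, overlapped with control in the PIAS3 arrays, at 8.32 and 8.50, with 8.66 and 8.53 in the siRNA arrays and 8.51 and 8.35 in the controls. TM7SF2, a sterol reductase, was the one gene of these steps with a difference above 0 in the PIAS3 comparison, at 7.06 and 7.44 in the PIAS3 arrays, 7.13 and 7.04 in the siRNA arrays and 7.11 and 6.99 in the controls, and its groups overlapped. Over the 9 genes the median against the control mean was -0.32 in PIAS3 replicate 1 and -0.032 in PIAS3 replicate 2.

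Among the regulators, SREBF1 and INSIG1 stood farthest from control, in opposite directions. SREBF1, the gene of SREBP-1, read 9.34 and 9.38 in the PIAS3 arrays, 9.05 and 9.21 in the siRNA arrays, and 8.77 and 8.58 in the controls. All transfected arrays were above both controls, and with PIAS3 the difference was 0.68 ± 0.12 (1.60-fold higher, limma adjusted p = 0.0873). INSIG1, a target of the SREBPs as well as their inhibitor, read 8.64 and 8.57 in the PIAS3 arrays, 8.79 and 8.05 in the siRNA arrays, and 9.08 and 9.20 in the controls. It was lower in every transfected array than in either control, by -0.53 ± 0.22 with PIAS3 (limma adjusted p = 0.352). The other 2 INSIG1 probe sets gave -0.50 ± 0.17 and -0.37 ± 0.20. On the last of these PIAS3 and control overlapped, as PIAS3 replicate 2 read 7.99 and control replicate 1 read 7.97.

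SREBF2, the gene of SREBP-2, read 8.27 and 8.28 in the PIAS3 arrays, 7.86 and 7.97 in the siRNA arrays and 8.21 and 8.12 in the controls. PIAS3 arrays were the highest and siRNA arrays the lowest, with no overlap between the 3 groups on this probe set, whereas on the second one SREBF2 differed from control by 0.066 with PIAS3 and 0.036 with the siRNA. INSIG2, the second anchor of SCAP, read 7.42 and 7.79 in the PIAS3 arrays, 7.54 and 7.65 in the siRNA arrays and 7.50 and 7.59 in the controls, and the groups overlapped. SCAP read 8.75 and 8.90 in the PIAS3 arrays, 8.84 and 8.84 in the siRNA arrays and 8.98 and 8.88 in the controls, and PIAS3 and control overlapped. The regulators therefore did not share a direction.

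**Figure D2:**
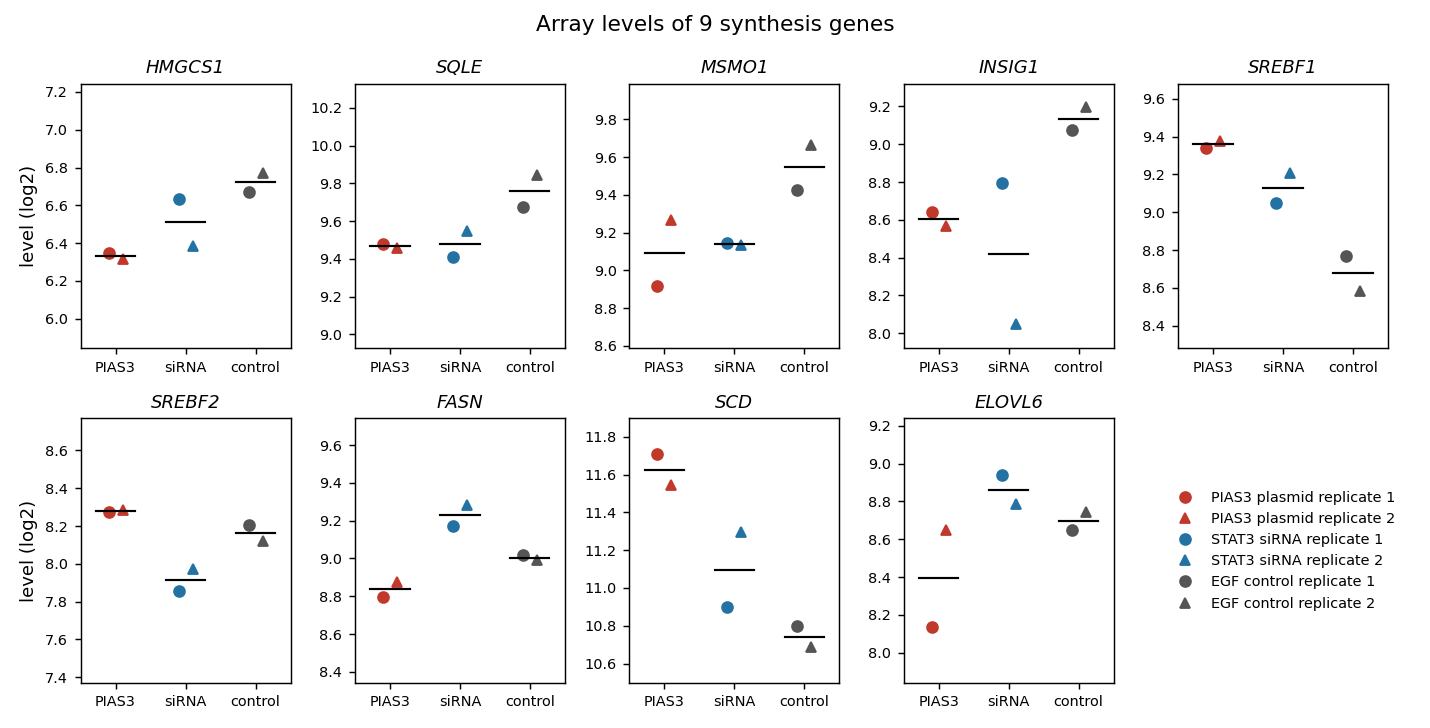
Log2 level (y axis, a span of the same width in each panel) of the 9 genes with an unadjusted p under 0.05 in at least 1 comparison, for PIAS3, STAT3 siRNA and EGF control arrays; circles are replicate 1, triangles replicate 2, and bars the mean of 2 arrays. SREBF1 and SCD are highest and HMGCS1 lowest with PIAS3, MSMO1 and SQLE are about as low in both transfected groups, and INSIG1 is lowest in STAT3 siRNA replicate 2 at 8.05.

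The start-site regions of the sterol genes and of the SREBP genes are shown because SREBF1 and SCD stood on the other side of control from INSIG1 and MSMO1. Of the 28 genes, 25 had a window in RefSeq's promoter table for GRCh38.p14, with 35 windows in all, and the table holds 35116 windows of the same length. Each window also runs past its start site, and the shares of windows with a match count the whole window. Below are the 250 bases before the gene start of 5 genes, read 5' to 3' along the gene's strand, with matches to 4 motifs in capitals: TCACNCCAC, the core of a sterol regulatory element, CCAAT, the NF-Y box, GGGCGG, the GC box, and CACGTG, an E-box. Both strands were searched, so ATTGG and CCGCCC are matches as well, and neighbouring GC boxes can overlap in 1 run of capitals. MSMO1 is at chr4:165327419-165327668 (+ strand), INSIG1 at chr7:155297628-155297877 (+), SREBF2 at chr22:41832855-41833104 (+), SREBF1 at chr17:17836987-17837236 (-) and SCD at chr10:100346983-100347232 (+).
MSMO1: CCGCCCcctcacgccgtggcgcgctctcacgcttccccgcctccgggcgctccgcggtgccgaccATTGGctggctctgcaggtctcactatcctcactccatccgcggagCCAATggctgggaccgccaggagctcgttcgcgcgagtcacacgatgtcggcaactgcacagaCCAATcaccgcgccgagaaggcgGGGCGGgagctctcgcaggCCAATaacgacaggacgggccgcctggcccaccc
INSIG1: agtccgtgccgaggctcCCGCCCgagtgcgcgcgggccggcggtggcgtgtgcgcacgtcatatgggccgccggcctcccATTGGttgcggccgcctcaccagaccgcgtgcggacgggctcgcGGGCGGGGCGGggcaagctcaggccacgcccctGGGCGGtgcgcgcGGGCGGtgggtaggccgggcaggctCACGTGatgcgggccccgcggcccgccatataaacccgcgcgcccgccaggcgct
SREBF2: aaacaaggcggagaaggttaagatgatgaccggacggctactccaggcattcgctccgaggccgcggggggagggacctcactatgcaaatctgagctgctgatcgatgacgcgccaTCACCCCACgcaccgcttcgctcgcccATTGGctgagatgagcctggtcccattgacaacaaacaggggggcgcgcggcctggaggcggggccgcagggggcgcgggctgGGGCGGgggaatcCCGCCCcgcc
SREBF1: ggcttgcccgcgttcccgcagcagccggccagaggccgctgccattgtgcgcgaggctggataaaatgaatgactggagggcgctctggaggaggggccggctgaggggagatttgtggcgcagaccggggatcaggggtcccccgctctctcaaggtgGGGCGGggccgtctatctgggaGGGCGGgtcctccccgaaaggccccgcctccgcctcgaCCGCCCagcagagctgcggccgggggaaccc
SCD: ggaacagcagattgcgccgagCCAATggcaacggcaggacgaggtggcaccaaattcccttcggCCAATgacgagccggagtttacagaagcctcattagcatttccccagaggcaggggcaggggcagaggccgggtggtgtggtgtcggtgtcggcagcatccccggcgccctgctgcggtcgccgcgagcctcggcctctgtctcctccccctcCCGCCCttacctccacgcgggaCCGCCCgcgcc

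CCAAT was found in 24 of the 35 windows (68.6%), against 34.6% of all windows, and GGGCGG in 30 (85.7%), against 45.0%. TCACNCCAC was found in 1 window, that of SREBF2, against 1.13% of all windows, and CACGTG in 6 (17.1%), against 7.26%. MSMO1 held 4 CCAAT matches, INSIG1 1, SCD 2 and SREBF1 0 in these stretches. Windows of 1 gene can overlap, the table also holds windows of genes of every other kind, and a match is a description of letters.

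The fatty acid genes did not share a direction with PIAS3: 4 of 7 lay above control and 3 below, with a median of 0.016 and 0 past the threshold. SCD, the desaturase that makes oleate from stearate, read 11.71 and 11.54 in the PIAS3 arrays, 10.90 and 11.30 in the siRNA arrays, and 10.80 and 10.69 in the controls. Both PIAS3 arrays were above all others, at 0.88 ± 0.15 over control (1.84-fold, limma adjusted p = 0.0873), the largest difference among the 28 genes in this comparison. SCD passed in a fit of the PIAS3 and control groups alone (limma adjusted p = 0.0373). Fits without either siRNA array take their spread from the same PIAS3 and control arrays, so they repeat that result and add no separate one. The other 3 SCD probe sets gave 0.64 ± 0.12, 0.45 ± 0.17 and 0.38 ± 0.20, all above 0 and none past the threshold.

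ACLY, which makes cytosolic acetyl-CoA from citrate, read 11.82 and 12.06 in the PIAS3 arrays, 12.02 and 12.10 in the siRNA arrays and 12.19 and 12.24 in the controls, with all transfected arrays below control. On the other ACLY probe sets both PIAS3 arrays were below both controls, but the siRNA and control arrays overlapped. FASN, the fatty acid synthase, read 8.80 and 8.88 in the PIAS3 arrays, 9.17 and 9.29 in the siRNA arrays and 9.02 and 8.99 in the controls. The 3 groups did not overlap on this FASN probe set, with PIAS3 lowest and siRNA highest. The dimmer FASN probe set read 4.73 and 4.77 in the PIAS3 arrays, 4.92 and 4.65 in the siRNA arrays and 5.02 and 5.34 in the controls, so there the siRNA arrays were below control and overlapped PIAS3. ACACA, the acetyl-CoA carboxylase that commits carbon to fatty acids, read 9.55 and 9.66 in the PIAS3 arrays, 9.58 and 9.71 in the siRNA arrays and 9.63 and 9.55 in the controls, and all groups overlapped. On the other ACACA probe set the siRNA arrays, at 7.82 and 7.96, lay above both controls, at 7.50 and 7.65. The PIAS3 arrays there, at 7.57 and 8.20, overlapped the controls.

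FADS2, a desaturase of polyunsaturated fatty acids, read 9.41 and 9.76 in the PIAS3 arrays, 9.62 and 9.79 in the siRNA arrays and 9.37 and 9.46 in the controls. ELOVL5, an elongase of polyunsaturated chains, read 10.61 and 10.84 in the PIAS3 arrays, 10.77 and 10.70 in the siRNA arrays and 10.53 and 10.72 in the controls. Both genes overlapped between PIAS3 and control. ELOVL6, the elongase of palmitate, read 8.14 and 8.65 in the PIAS3 arrays, 8.94 and 8.78 in the siRNA arrays and 8.65 and 8.75 in the controls, and on this probe set PIAS3 replicate 1 was the array far below control. The other ELOVL6 probe set read 6.83 and 7.07 in the PIAS3 arrays, 7.33 and 7.30 in the siRNA arrays and 7.34 and 7.46 in the controls, with both PIAS3 arrays below control at -0.45 ± 0.12 (limma adjusted p = 0.181).

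The PIAS3 arrays differed from each other more than the arrays of the other groups, in these genes as over all probe sets. Replicate 1 read below replicate 2 for 23 of the 28 genes, with a median gap of -0.24, while 54.4% of all genes were lower in replicate 1. The siRNA arrays had 12 and the controls 14 of 28 genes lower in replicate 1, with median gaps of 0.021 and -0.010, beside 40.8% and 49.9% of all genes. The SD of the gap over the 28 genes was 0.25 for PIAS3, 0.21 for the siRNA and 0.11 for the control, beside 0.35, 0.25 and 0.15 over all probe sets. Genes with the widest PIAS3 gaps were EBP (-0.81), FDPS (-0.79), ELOVL6 (-0.51) and NSDHL (-0.48), whereas the gap was 0.032 for HMGCS1, 0.022 for SQLE, 0.071 for INSIG1 and -0.041 for SREBF1. Without PIAS3 replicate 2, the PIAS3 group is 1 array, replicate 1, assumed to vary like the other groups, so the gap between the PIAS3 arrays no longer counts as error. In that fit the difference from control was -0.78 for EBP, -0.57 for FDPS and 0.96 for SCD. Without PIAS3 replicate 1 the SCD difference was 0.80.

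In cells given the STAT3 siRNA, INSIG1, MSMO1 and SQLE stood below the EGF control and SREBF1 above it, and none of the 28 genes passed, where limma called 0.00450% of probe sets. INSIG1 differed by -0.72 ± 0.22 (1.64-fold lower, limma adjusted p = 0.897). Its value rested on the arrays unequally, with a difference of -0.34 without siRNA replicate 2 and of -1.09 without siRNA replicate 1. SREBF1 differed by 0.45 ± 0.12 (limma adjusted p = 0.762), MSMO1 by -0.41 ± 0.15 and SQLE by -0.28 ± 0.11 (limma adjusted p of 0.9998 for each). Before adjustment 1 gene was higher and 3 were lower at a p under 0.05, against 2.32% and 3.06% of all genes.

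Both siRNA arrays lay below both controls for 11 of the 28 genes (39.3%) and above them for 7 (25%), against 19.5% and 19.4% of all genes, or 39.0% in either direction. The genes below were 2 mevalonate genes, 5 genes of the squalene steps, 3 regulators and ACLY, whose siRNA and control arrays overlapped on its other probe sets. Those above included FASN, SCD, FADS2 and ELOVL6, that is 4 of 7 fatty acid genes. On the second probe sets, however, FASN and ELOVL6 lay below both controls, at -0.39 ± 0.15 and -0.086 ± 0.12. For SCD the siRNA arrays, at 9.13 and 9.28, were also above both controls, at 8.81 and 8.87, on its second probe set. They overlapped the controls on the others, with 8.07 and 8.27 against 7.75 and 8.09, and 8.13 and 8.41 against 7.59 and 8.16. The median difference of the squalene steps was -0.23, that of the mevalonate steps -0.060 and that of the fatty acid genes 0.17, beside -0.0015 over all genes. In this comparison the squalene steps were about equally low in both arrays, at -0.18 in siRNA replicate 1 and -0.21 in siRNA replicate 2 against the control mean, and the fatty acid genes stood at 0.15 and 0.12. The PIAS3 and siRNA comparisons share their control arrays, so like signs in them are not independent.

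**Figure D3:**
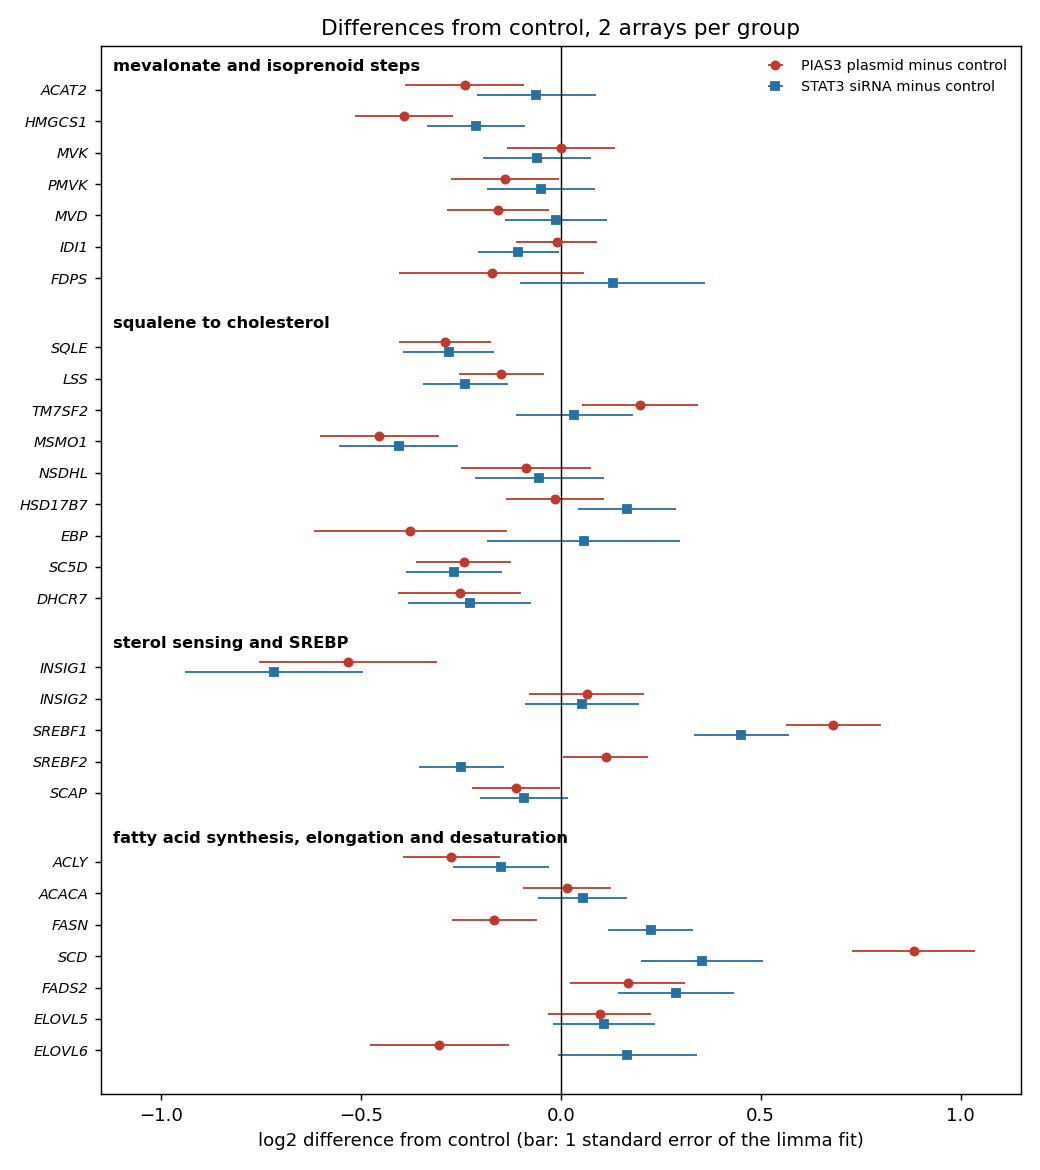
Log2 difference from the EGF control (x axis) of each of the 28 genes for PIAS3 (red circles) and STAT3 siRNA (blue squares), with bars of 1 standard error of the limma fit and 2 arrays per group. SREBF1, at 0.68 and 0.45, and SCD, at 0.88 and 0.35, lie farthest right, and INSIG1, at -0.53 and -0.72, farthest left. FASN, SREBF2 and ELOVL6 lie on opposite sides of 0 on the probe sets plotted, though not on their second probe sets. EBP, FDPS, HSD17B7 and MVK also lie on opposite sides, EBP on 1 of its other probe sets as well. On the other MVK probe sets both differences were below 0.

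Set directly against the STAT3 siRNA, the PIAS3 arrays had 0 of the 28 genes past the threshold, as limma called 0 of 22215 probe sets, with 793 higher and 1006 lower at an unadjusted p under 0.05. Before adjustment SCD and SREBF2 were higher and FASN and ELOVL6 lower in PIAS3, against 4.19% and 3.83% of all genes. SCD differed by 0.53 ± 0.15, SREBF2 by 0.36 ± 0.11, FASN by -0.39 ± 0.11 and ELOVL6 by -0.47 ± 0.17, each at a limma adjusted p of 0.607. The ELOVL6 difference was -0.215 without PIAS3 replicate 1 and the SCD difference 0.33 without siRNA replicate 1. For these 4 genes the arrays of the groups did not overlap. Over the 28 genes 4 were apart and higher (14.3%) and 4 apart and lower (14.3%). The shares of all genes were 17.0% and 17.5%, or 34.5% in either direction. The second SREBF2 probe set gave 0.030 ± 0.10 and the second FASN probe set -0.035 ± 0.15, so those differences were seen on 1 probe set alone. The second ELOVL6 probe set gave -0.36 ± 0.12, and the other SCD probe sets between -0.018 and 0.27. The median over the 28 genes was -0.029, beside -0.0016 over all genes, and it was 0.082 without PIAS3 replicate 1. Without PIAS3 replicate 2, the lone PIAS3 array differed from the siRNA by -0.84 for EBP, -0.70 for FDPS and -0.73 for ELOVL6.

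Genes that move and store sterols were looked at beside those that make them. Of 11 measured genes of sterol uptake, efflux and storage, 10 lay above control with PIAS3 and 1 below, with a median difference of 0.61, and 0 passed the threshold. ABCG1, a cholesterol exporter, read 6.77 and 7.28 in the PIAS3 arrays, 6.08 and 6.61 in the siRNA arrays, and 5.13 and 5.45 in the controls. The 3 groups did not overlap, and ABCG1 differed by 1.73 ± 0.23 with PIAS3 (3.32-fold, limma adjusted p = 0.0582) and by 1.05 ± 0.23 with the siRNA (limma adjusted p = 0.601). With single arrays left out, the difference with PIAS3 ranged from 1.48 to 1.98 for ABCG1 and from 0.72 to 1.17 for ABCA1. ABCA1, which loads cholesterol onto apolipoproteins, read 7.49 and 7.04 in the PIAS3 arrays, 7.04 and 6.97 in the siRNA arrays and 6.43 and 6.22 in the controls, at 0.94 ± 0.17 with PIAS3 (limma adjusted p = 0.0883) and 0.68 ± 0.17 with the siRNA (limma adjusted p = 0.685). ABCA1 and ABCG1 are, like SREBF1 and SCD, known targets of the liver X receptors, whose part in these differences was not tested.

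The list's median against the control mean was 0.48 and 0.60 in the PIAS3 arrays, so it did not rest on PIAS3 replicate 1, and 0.13 and 0.44 in the siRNA arrays. Its median difference with the siRNA was 0.31, with 8 of 11 above control. NPC2, a lysosomal cholesterol carrier, was the gene below control with PIAS3, at 10.77 and 11.26 in the PIAS3 arrays, 11.80 and 11.06 in the siRNA arrays and 11.64 and 11.70 in the controls. In PIAS3 against the siRNA, 8 of 11 lay above, with ABCG1 at 0.68 ± 0.23 and LIPA, the lysosomal acid lipase, at 0.39 ± 0.13 (limma adjusted p of 0.607 for each). ABCG1 was at 0.41 there without siRNA replicate 1, and LIPA at 0.24 without PIAS3 replicate 1.

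**Figure D4:**
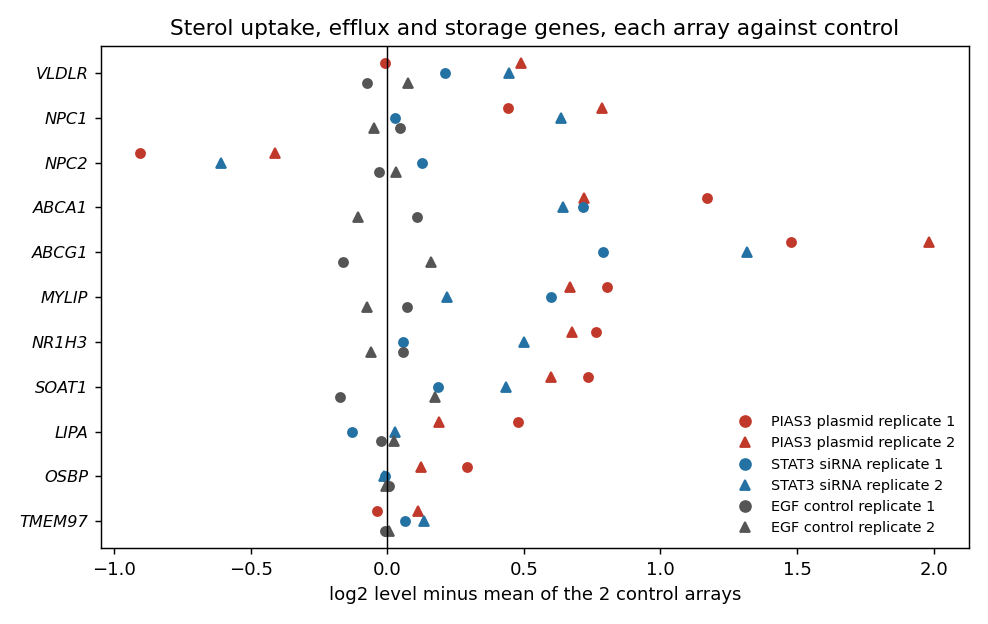
Log2 level of 11 genes of sterol uptake, efflux and storage in each array minus the mean of the 2 control arrays (x axis); circles are replicate 1 and triangles replicate 2 of the PIAS3 plasmid (red), STAT3 siRNA (blue) and EGF control (grey) groups. ABCA1 and ABCG1 lie right of both controls in all 4 transfected arrays, and NPC2 is the gene left of them in both PIAS3 arrays.

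The 8 measured genes of other sterol synthesis and SREBP processing steps differed by -0.25 to 0.076 with PIAS3 and -0.18 to 0.17 with the siRNA, with medians of -0.075 and 0.023, and 0 passed the threshold in either. Both PIAS3 arrays lay below both controls for 5 of the 8 (62.5%) and above them for 0, against 23.7% and 22.4% of all genes. The list's median against the control mean was -0.16 in PIAS3 replicate 1 and -0.049 in PIAS3 replicate 2. RNF139, an endoplasmic reticulum ubiquitin ligase, and ERLIN2, a partner of sterol-dependent degradation, had the smallest p-values with PIAS3 among the 8, at -0.25 ± 0.15 and -0.23 ± 0.12 (limma adjusted p of 0.523 and 0.473). RNF139 was at -0.076 without PIAS3 replicate 1, and ERLIN2 at -0.12 without control replicate 2. In PIAS3 against the siRNA, all 8 lay below 0, between -0.17 for LBR, a sterol reductase of the nuclear envelope, and -0.052, and 0 passed. LBR was at -0.168 ± 0.14 there (limma adjusted p = 0.744) and at -0.041 without PIAS3 replicate 1, and RNF139 at -0.13 ± 0.15 (limma adjusted p = 0.819), with the sign turned to 0.040 without that array. With the siRNA, ACAT1, the mitochondrial thiolase, was at 0.17 ± 0.14 and ERLIN2 at -0.18 ± 0.12 (limma adjusted p of 0.9998 for each), and ERLIN2 was at -0.069 without control replicate 2. Of 13 genes of fatty acid supply, activation and storage, 8 lay above control with PIAS3 and 5 below, with 0 past the threshold. IDH1 is a cytosolic source of NADPH. It read 11.34 and 11.16 with PIAS3, 10.41 and 11.04 with the siRNA and 10.22 and 10.40 in the controls. Its difference from control was 0.94 ± 0.20 with PIAS3 (limma adjusted p = 0.117), and 0.85 to 1.03 with single arrays left out. Against the siRNA, IDH1 differed by 0.53 ± 0.20 with PIAS3, and by 0.21 without siRNA replicate 1. MLX, a partner of carbohydrate-responsive transcription factors, read 9.73 and 9.66 in the PIAS3 arrays, 9.38 and 9.46 in the siRNA arrays and 9.27 and 9.25 in the controls, and differed from the siRNA by 0.27 ± 0.10 with PIAS3 (limma adjusted p of 0.607 for both genes). ACSL4, which activates polyunsaturated fatty acids, read 6.26 and 6.39 in the PIAS3 arrays, 6.53 and 6.13 in the siRNA arrays and 6.93 and 7.12 in the controls. It was below control in all transfected arrays, by -0.70 ± 0.16 with PIAS3 and -0.69 ± 0.16 with the siRNA (limma adjusted p of 0.126 and 0.645). PLIN2, a coat protein of lipid droplets, differed by -0.39 ± 0.10 with PIAS3 and -0.44 ± 0.10 with the siRNA (limma adjusted p of 0.168 and 0.677).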

How the data were processed

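Expression was measured on 6 Affymetrix arrays. The authors deposited the values as log2 per probe set. RMA, which adjusts background and quantile-normalizes and can compress small differences of dim probe sets, is named without a version in the submitters' processing notes. The annotation supplied gave 1 symbol to 19064 of 22215 probe sets, several to 1043 and none to 2108, and 62 array control probe sets were left out. Groups and replicate numbers come from the sample titles. All 6 arrays entered 1 two-sided limma model (lmFit, then eBayes; limma 3.58.1, R 4.3.3) with 3 residual and 4.27 prior degrees of freedom, and p-values were Benjamini-Hochberg adjusted over the 22215 probe sets separately for 3 comparisons. Errors beside differences are standard errors of the fit. The genes and lists were chosen with earlier results of these data known. Differences with errors and adjusted p are given for genes of the set with an unadjusted p under 0.05 and for the 2 genes with the smallest p in each further lipid list; other probe sets, NPC2, PLIN2 with PIAS3 and the cell type markers shown were named after their values were seen. Shares of all genes count 11963 genes by their brightest probe set. Levels are not compared between genes. The fit and the motif search were tested on simulated data. Alternatives were a replicate block, 3 further normalizations, a filter on dim probe sets, 2 further eBayes settings, a fit of 2 groups alone, an adjusted p of 0.10, averaging the probe sets of each gene, and leaving out each array. Plots used matplotlib 3.10.9 (Python 3.11.15).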

Additional observations from a re-analysis of the deposited data

How the results depend on the processing

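Under 16 alternatives, the 38 gene differences named by the rule gave 605 values: 578 kept direction and side of the threshold, 26 newly passed and 1 turned, RNF139 in PIAS3 against the siRNA, which ranged from -0.30 to 0.040 with arrays left out, the highest without PIAS3 replicate 1. Genes of the set that passed for PIAS3 against control were SCD in a fit of the 2 groups alone (1 higher) and SCD and SREBF1 at an adjusted p of 0.10 (2 higher); with arrays left out the counts were 0 to 1 higher and 0 to 2 lower there, 0 to 3 lower for PIAS3 against the siRNA (EBP, FDPS and ELOVL6 without PIAS3 replicate 2), and 0 for the siRNA against control. The set's median ranged with arrays left out from -0.24 to 0.0034 for PIAS3 against control, from -0.090 to -0.0035 for the siRNA against control and from -0.17 to 0.082 for PIAS3 against the siRNA. Over all probe sets, PIAS3 against control gave 6 higher and 16 lower, against 1 and 1 with the replicate block, 0 and 2 with quantile normalization again and without dim probe sets, 10 and 29 with cyclic loess, 15 and 25 with robust eBayes, 130 and 132 with the 2 groups alone, 115 and 139 at an adjusted p of 0.10, and 0 to 541 and 0 to 691 with arrays left out, the highest without PIAS3 replicate 2. The siRNA against control gave 1 lower, against 0 with quantile normalization again and with cyclic loess and 3 with the 2 groups alone, and 0 to 2 higher and 0 to 3 lower with arrays left out; PIAS3 against the siRNA gave 0 to 282 and 0 to 262. The cause of these shifts was not tested, though a fit with fewer arrays has fewer residual degrees of freedom. With 1 or both arrays of the third group left out, a comparison takes its spread from the same arrays. Those settings therefore repeat 1 result, and the 26 values that newly passed include such repeats. Replicate numbers only name the arrays: deviations of same-numbered arrays correlated at -0.047, 0.092 and -0.059, and with the replicate block ABCG1 passed for PIAS3 against control (limma adjusted p = 0.0295).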

Other observations

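Fatty acid oxidation genes were measured beside the synthesis genes. Of 13, 7 lay above control with PIAS3 and 8 with the STAT3 siRNA, with medians of 0.066 and 0.086 and 0 past the threshold. PPARGC1A, a coactivator of mitochondrial and oxidative genes, read 5.80 and 5.84 in the PIAS3 arrays, 4.95 and 5.44 in the siRNA arrays, and 4.46 and 4.65 in the controls. Its 3 groups did not overlap, with differences of 1.27 ± 0.17 for PIAS3 (limma adjusted p = 0.0582) and 0.64 ± 0.17 for the siRNA (limma adjusted p = 0.762), and of 0.63 ± 0.17 for PIAS3 against the siRNA (limma adjusted p = 0.607). The difference for PIAS3 against control ranged from 1.18 to 1.36 with single arrays left out, and that against the siRNA was 0.38 without siRNA replicate 1. PDK4, the kinase that restrains pyruvate entry into mitochondria, read 7.08 and 6.52 in the PIAS3 arrays, 6.44 and 6.64 in the siRNA arrays, and 5.64 and 6.11 in the controls. All transfected arrays were above both controls, by 0.92 ± 0.22 for PIAS3 (limma adjusted p = 0.144) and 0.66 ± 0.22 for the siRNA (limma adjusted p = 0.959). The PDK4 difference with PIAS3 ranged from 0.64 to 1.21 with single arrays left out. HADHB, a subunit of the trifunctional protein, read 11.08 and 11.04 in the PIAS3 arrays, 10.65 and 10.91 in the siRNA arrays and 10.64 and 10.68 in the controls. Against the siRNA, HADHB differed by 0.28 ± 0.12 with PIAS3 (limma adjusted p = 0.616), and by 0.15 without siRNA replicate 1.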
